A study of Mus musculus with 6 samples.

Results

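The 10 genes examined here encode the interleukin-6 (IL-6) family of cytokines and its receptors in osteoblasts (OBs) that BMP-2 had induced outside the skeleton of mice. They are the ligands *Il6*, *Il11*, *Lif* and *Osm*, the receptor chains *Il6ra*, *Il11ra1*, *Lifr*, *Osmr* and *Il6st*, and *Socs3*, the feedback inhibitor of the pathway. They were taken by gene symbol from 6 tables of FPKM (fragment numbers scaled to exon length and to the mapped total), 1 per sample, each with 23284 genes. The list was chosen by gene family with the FPKM of these samples on both days already known, and *Il6* had also been picked by the study on these samples for its day 14 level. The day differences of the members are therefore given as a description.

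The cells were ECFP+ OBs from male *Col2.3*-ECFP mice aged 12 to 16 weeks, a reporter line in which a type I collagen promoter drives cyan fluorescent protein. All mice carried a subcutaneous collagen sponge loaded with 2.5 µg of recombinant human BMP-2, a growth factor that induces bone outside the skeleton. There were 3 samples from day 10 after implantation and 3 from day 14, called biological replicates in the labels, and how many mice made up a sample was not given in the sources used here. The titles put all 3 later samples at day 14, whereas their descriptions give day 14, 15 and 16 for replicates 1, 2 and 3. Cells that stained for CD45 (blood cells) or 7AAD (dead cells) had been gated out. Minced bone was treated with 0.25% trypsin for 15 min, followed by 40 min in 0.2% collagenase II, which was done 1 time on day 10 and 2 times on day 14. Day and number of digestions cannot be told apart. The study set the 2 days side by side to look for expression that goes with the change in OB shape.

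IL-6 family cytokines act through receptor complexes that share the chain gp130, the product of *Il6st*. IL-6 and IL-11 first bind their own receptor chains (*Il6ra*, *Il11ra1*), while leukaemia inhibitory factor (LIF) and oncostatin M (OSM) join gp130 to the chains made from *Lifr* and *Osmr*. The complexes activate JAK kinases and STAT3, which turns on *Socs3*, whose product shuts gp130 signalling down. In bone, OBs and their precursors make IL-6, IL-11 and LIF, which act on OBs themselves and raise RANKL, the factor that osteoclasts need. OSM is made mainly by macrophages and other blood cells.

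Promoters are printed for the 3 ligand genes whose days did not overlap in the FPKM as given, and for the feedback gene. They show the control sequences next to the measured genes. Promoters of 9 of the 10 members, in 12 windows, were in the RefSeq table for build GRCm38.p6. Each window runs from 250 bases before the start site to 50 bases after it. It was searched on both strands for a STAT motif (TTCNNNGAA), a C/EBP motif (TTGCNNAA), an NF-kB motif (GGANTTTCC) and an AP-1 motif (TGANTCA), and capitals mark the matches.
*Il6*, chr5:30012864-30013163 (+ strand): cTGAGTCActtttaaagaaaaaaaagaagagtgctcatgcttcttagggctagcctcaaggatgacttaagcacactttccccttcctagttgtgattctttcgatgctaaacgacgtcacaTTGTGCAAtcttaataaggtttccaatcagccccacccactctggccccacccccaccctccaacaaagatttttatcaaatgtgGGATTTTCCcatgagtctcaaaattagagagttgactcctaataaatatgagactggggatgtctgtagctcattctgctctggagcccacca
*Il11*, chr7:4778092-4778391 (- strand): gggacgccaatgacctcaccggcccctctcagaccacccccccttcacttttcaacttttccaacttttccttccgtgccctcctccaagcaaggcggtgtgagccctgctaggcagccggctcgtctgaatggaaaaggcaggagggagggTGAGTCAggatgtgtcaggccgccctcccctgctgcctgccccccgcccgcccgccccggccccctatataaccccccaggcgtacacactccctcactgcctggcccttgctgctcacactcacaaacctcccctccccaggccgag
*Lif*, chr11:4257318-4257617 (+ strand): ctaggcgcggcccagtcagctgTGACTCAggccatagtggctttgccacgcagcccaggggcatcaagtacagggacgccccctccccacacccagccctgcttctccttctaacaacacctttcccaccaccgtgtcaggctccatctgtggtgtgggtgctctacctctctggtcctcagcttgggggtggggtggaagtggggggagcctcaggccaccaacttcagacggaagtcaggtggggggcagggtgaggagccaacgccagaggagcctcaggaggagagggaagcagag
*Socs3*, chr11:117969317-117969616 (- strand): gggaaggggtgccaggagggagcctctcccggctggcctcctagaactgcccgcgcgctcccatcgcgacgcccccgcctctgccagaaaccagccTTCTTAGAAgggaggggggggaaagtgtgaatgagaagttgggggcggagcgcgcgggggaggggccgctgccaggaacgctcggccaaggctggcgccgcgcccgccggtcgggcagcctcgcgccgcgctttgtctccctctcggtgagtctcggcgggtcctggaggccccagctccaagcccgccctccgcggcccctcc
The *Il6* window held 3 of the 4 motifs without overlap, counted from the start site: AP-1 from -249 to -243, C/EBP from -128 to -121 (on the reverse strand) and NF-kB from -43 to -35. The *Il11* window, that of the second of 2 start sites, held AP-1 from -98 to -92, and the *Lif* window held AP-1 from -228 to -222. The *Socs3* window held the STAT motif from -154 to -146. Outside the printed windows, *Osmr* had an AP-1 match from 4 to 10 after the start, and the other windows had none of the 4 motifs. Over all 32851 promoters in the table, 8.30% held the STAT motif, 10.8% the C/EBP motif, 1.25% the NF-kB motif and 7.81% the AP-1 motif. A match describes letters in a window and is not a measured binding site.

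By the labels the cells were OBs, and the 9 OB and osteocyte markers were present in every sample, with *Col1a1* between 14151 and 34157 FPKM. The sum of the 9 markers was 72085, 77039 and 39826 FPKM on day 10 and 31107, 53738 and 26395 FPKM on day 14 in replicates 1, 2 and 3. Replicate 2 of day 14 stood apart from the other samples of its day. Its 11 myeloid markers summed to 21.3 FPKM, against 296 and 710 FPKM in replicates 1 and 3, with *Lyz2* alone at 454 FPKM in replicate 3. Its 10 chondrocyte markers summed to 2452 FPKM, against 229 and 162 FPKM in those replicates and 761 to 1588 FPKM on day 10. In replicate 2 of day 14 the chondrocyte sum was mostly *Comp*, at 1383 FPKM, and *Col2a1*, at 688 FPKM. *Ptprc*, which encodes CD45, was at 0.134 FPKM in that sample and at 2.99 and 2.81 FPKM in replicates 1 and 3, and 2 myeloid markers, *Adgre1* (listed as *Emr1*) and *Fcer1g*, were listed at 0 in it. The files held no read counts. From the steps between low FPKM values the depth was estimated at 4531000 to 7758650 reads per sample, with 74.9% to 79.3% of low values falling within 0.1 of a whole read. At these depths 3 reads on a transcript of 1000 bases would be worth 0.387 to 0.662 FPKM when the full length is counted. They would be worth more with the assumed fragment length taken off, as in the read numbers given below. In sorted bulk cells, fewer cells of a type and less RNA per cell cannot be told apart.

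The ligands *Il6*, *Il11* and *Lif* and the shared chain *Il6st* had all 3 samples of day 14 above those of day 10. The other 6 members overlapped between the days. For *Lif* the days overlapped once either rescaling was applied. All 10 members passed the filter (a mean above 0.1 FPKM), as did 19526 genes in all, and 9 of the 10 had a higher mean log2 level on day 14, against 46.5% of all genes tested. In *Osm*, *Socs3* and *Il6ra* the sign changed over the 14 alternatives in samples and processing, holding in 9, 13 and 13 of them. The median log2 fold change (day 14 minus day 10, on the scale of log2(FPKM + 0.1)) was 0.70 over the members and -0.04 over all genes tested. *Il6* and *Il11* were more than 2-fold higher, in a setting where 5.25% of all genes tested were, and *Lifr* was more than 2-fold lower, where 8.39% were. The 4 members with day 14 wholly above day 10 stood against 7.59% of all genes tested. None lay wholly below, against 6.67% of all genes tested.

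In the limma test 0 members had an adjusted p under 0.05 (Benjamini-Hochberg over all genes tested), and 0.0154% of all genes did. The lowest adjusted p among the members was 0.116 for *Il6* from limma. Unadjusted p-values from the same fit were under 0.05 for 5 members, *Il6*, *Il11*, *Lif*, *Osmr* and *Il6st*, and for 10.0% of all genes tested. Since the members were listed with these values known, nothing is supported with these p-values.

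The counts depended on single samples. Leaving out a sample can only keep or raise the number of genes without overlap, whichever sample it is. Without replicate 2 of day 14, 4 members were more than 2-fold higher (*Il6*, *Osm*, *Il11ra1* and *Osmr*) against 9.61% of genes, and 1 was more than 2-fold lower (*Lifr*) against 7.55%. All remaining day 14 samples then lay above day 10 in 6 members (*Il6*, *Il11*, *Lif*, *Il6ra*, *Il11ra1* and *Il6st*) against 15.4% of genes, and below it in 1 (*Lifr*) against 13.3%. Without replicate 3 of day 10, 5 members differed more than 2-fold (*Il6*, *Il11*, *Lif* and *Il11ra1* higher, against 7.29% of genes, and *Lifr* lower, against 10.6%).

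**Figure D1:**
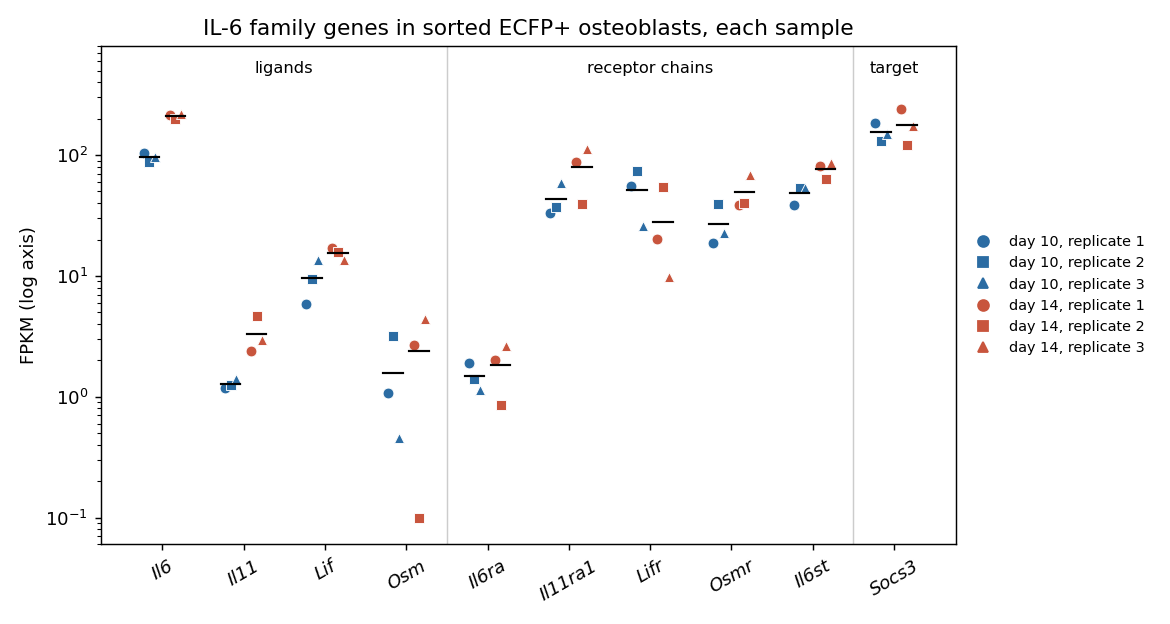
FPKM of the 10 IL-6 family genes (log axis) in each of the 6 samples, with day 10 in blue, day 14 in red, symbols for the replicates and short black lines for the means of 3. *Il6* lay between 87.4 and 105 FPKM on day 10 and between 199 and 218 FPKM on day 14, while *Osm*, *Lifr* and *Il11ra1* were spread within the days.

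*Il6* was the ligand with the highest level by far. The gene lies at chr5:30013114-30019981 on the plus strand (mm10, GENCODE vM21), and its mRNA encodes IL-6 itself. In the order of replicates 1, 2 and 3, its level was 105, 87.4 and 97.2 FPKM on day 10, against 214, 199 and 218 FPKM on day 14. The days were 94.4 FPKM apart at their nearest samples. The means were 96.5 ± 8.77 FPKM on day 10 and 210 ± 9.81 FPKM on day 14 (SD, n = 3 each), a log2 fold change of 1.13 with an SE of 0.15 and a 95% interval from 0.79 to 1.46. Replicates varied little: the residual SD on the log2 scale was 0.11, and 2.35% of all genes tested had a smaller one, against a median over all genes of 0.50. Replicate 2 of day 14, which stood apart in its cartilage and myeloid markers, was not apart in *Il6*, and without it the log2 fold change was 1.17. Over 14 alternatives in samples and processing it stayed between 1.06 and 1.19, with adjusted p from limma between 0.0737 and 0.755.

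*Il11*, whose product shares gp130 with IL-6 and is known from bone stroma, was a low-level gene. It stood at 1.18, 1.26 and 1.40 FPKM on day 10, against 2.39, 4.66 and 2.93 FPKM on day 14. All day 14 values were above all day 10 values, with a gap of 0.99 FPKM. The log2 fold change was 1.26 with an SE of 0.33 and an adjusted p of 0.319 from limma. The highest value was that of replicate 2 of day 14, and without it the log2 fold change was 1.00, just under 2-fold. A pseudocount of 1 brought it to 0.89. By the estimated depths and an assumed transcript length of 1059 bases, these levels stood for few reads. They were about 4.8 to 9.0 reads per sample on day 10 and 9.0 to 23.0 on day 14, so counting error alone was large.

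*Lif* encodes a ligand of the LIFR and gp130 pair. Its level was 5.85, 9.51 and 13.56 FPKM on day 10, and 17.1, 15.8 and 13.59 FPKM on day 14. The days were thus parted by only 0.0273 FPKM, between replicate 3 of day 10 and replicate 3 of day 14. Under either of the 2 rescalings these 2 samples changed order and the days overlapped. The means were 9.64 ± 3.86 and 15.5 ± 1.79 FPKM (SD, n = 3 each), with a log2 fold change of 0.75 (SE 0.29, adjusted p = 0.443 from limma). Leaving out replicate 1 of day 10, the lowest sample, brought it to 0.44, and leaving out replicate 3 of day 10 to 1.04.

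*Osm* varied more within a day than between the days. Its values were 1.08, 3.21 and 0.453 FPKM on day 10 and 2.70, 0.0992 and 4.41 FPKM on day 14. The lowest and the highest sample were both from day 14. The log2 fold change was 0.07 with an SE of 1.15 (adjusted p = 0.994 from limma), and a smaller residual SD than its 1.94 was found in 97.7% of genes tested. Without replicate 2 of day 14 it was 1.46, and without replicate 3 of day 14 it was -0.79, so no direction can be given. The value of replicate 2 of day 14 was worth less than 1 read at the estimated depth, and that of replicate 3 about 40.2 reads.

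*Osm* and the myeloid markers had the same highest and the same lowest sample. The 11 markers of macrophages and leukocytes in general summed to 39.9, 174 and 138 FPKM on day 10 and to 296, 21.3 and 710 FPKM on day 14. In 8 of the 11 (*Lyz2*, *Cd68*, *Csf1r*, *Itgam*, *Tyrobp*, *Fcer1g*, *Ctss* and *Laptm5*) the highest sample was replicate 3 and the lowest replicate 2 of day 14, and 2 of the 11 were listed at 0 in replicate 2. Over the order of the 6 samples, *Osm* shared 2 places with the myeloid sum, 4 with the neutrophil sum and 3 with the osteoclast sum, which was mostly *Ctsk*. The 5 neutrophil markers summed to 8.22, 260 and 8.12 FPKM on day 10 and to 39.6, 0.820 and 52.5 FPKM on day 14, with *S100a8*, *S100a9* and *Ngp* listed at 0 in replicate 2 of day 14. The part of blood cell RNA in the *Osm* values was not tested. *Osm* and *Lif* are neighbours on chromosome 11, 16531 bases apart, and their values did not follow the same order: replicate 2 of day 14 had the lowest *Osm* value and the second highest *Lif* value.

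Among the 4 ligands *Il6* held 86.2% to 92.8% of the summed FPKM in every sample. Its level was 42.8 to 89.5 times that of *Il11* in the same sample. FPKM is set per length, so levels of different genes may be compared, with the error that the transcript models bring.

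**Figure D2:**
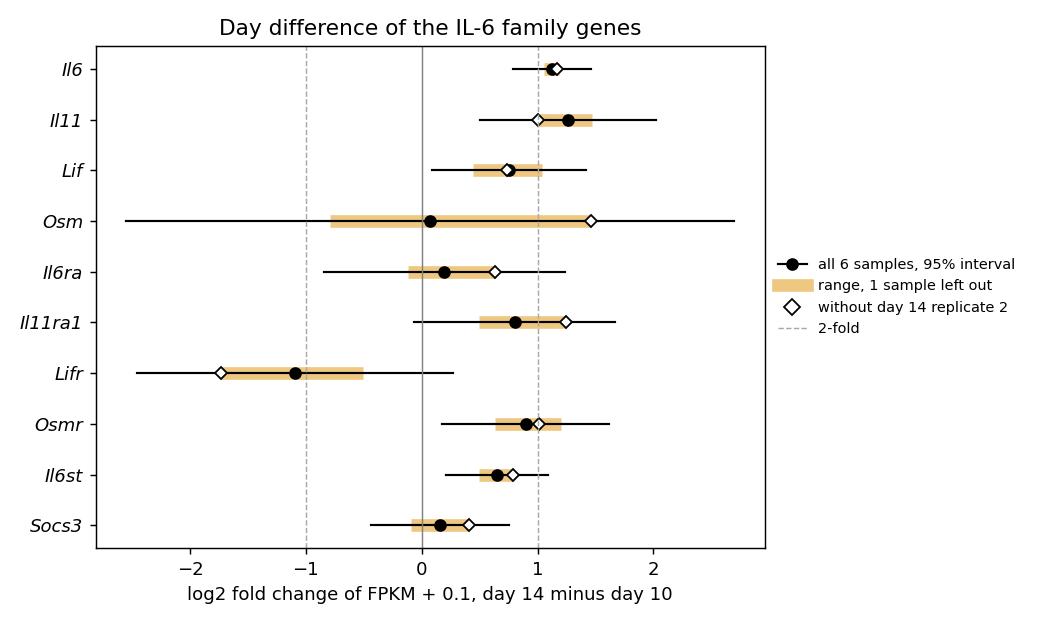
Log2 fold change of each member (day 14 minus day 10, log2(FPKM + 0.1)) with its 95% interval from limma in black, the range over leaving out each sample in orange and the value without replicate 2 of day 14 as an open diamond, with dashed lines at 2-fold. *Il6* stayed near 1.13 throughout, whereas *Osm* ran from -0.79 to 1.46 and *Lifr* from -1.74 to -0.51.

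The receptor chains were mostly expressed between 9.80 and 111 FPKM, except *Il6ra*. *Il6st*, which encodes the shared signalling chain gp130, was measured at 38.5, 53.6 and 53.8 FPKM on day 10, against 80.7, 62.9 and 85.2 FPKM on day 14. The days did not overlap, with a gap of 9.07 FPKM. The means were 48.6 ± 8.78 and 76.3 ± 11.8 FPKM (SD, n = 3 each), a log2 fold change of 0.65 with an SE of 0.19 and an adjusted p of 0.340 from limma. It remained under 2-fold when any sample was left out, at 0.49 to 0.79 on the log2 scale.

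*Il6ra* encodes the chain that lets a cell bind IL-6 directly. It was at 1.89, 1.39 and 1.15 FPKM on day 10, against 2.02, 0.860 and 2.62 FPKM on day 14. The days overlapped, since replicate 2 of day 14 was the lowest of all samples. The log2 fold change was 0.19 (95% interval -0.85 to 1.24, adjusted p = 0.939 from limma), and without that sample it was 0.64. The level of *Il6* was 55.6 to 232 times that of *Il6ra*, and the level of *Il6st* was 20.4 to 73.2 times that of *Il6ra*. Like *Osm* and the myeloid sum, *Il6ra* was highest in replicate 3 and lowest in replicate 2 of day 14. Over the order of the 6 samples it shared 3 places with the myeloid sum, 3 with the osteoclast sum and 2 with the neutrophil sum. The part of blood cell RNA in the *Il6ra* values was not tested. An antisense gene, *Gm42809*, overlaps *Il6ra*, and the cDNA kit does not mark strand, so their reads cannot be told apart.

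*Il11ra1*, the receptor chain of IL-11, was at 33.3, 37.3 and 58.3 FPKM on day 10, against 88.0, 39.4 and 111 FPKM on day 14. Replicates 1 and 3 of day 14 were above every day 10 sample, and replicate 2 was among them. The log2 fold change was 0.80 with an SE of 0.38 (adjusted p = 0.534 from limma), and without replicate 2 of day 14 it was 1.24 (adjusted p = 0.163 from limma, with a range of 0.163 to 0.984 over the alternatives). The level of *Il11ra1* was 8.45 to 41.5 times that of its ligand gene *Il11*. The value is uncertain because *Gm13305* and *Il11ra2* carry near-identical transcripts (98.6% over 2578 bases and 99.0% over 1299 bases). Both were listed at 0 FPKM in all 6 samples. *Ccl27a* also overlaps *Il11ra1* on the other strand, at no more than 5.13 FPKM.

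The 2 chains that pair with gp130 for LIF and OSM, *Lifr* and *Osmr*, are neighbours on chromosome 15, 215645 bases apart, and their mean log2 levels differed between the days in opposite directions. *Lifr*, which encodes the LIF receptor chain, was at 55.5, 73.3 and 25.9 FPKM on day 10, against 20.3, 54.3 and 9.80 FPKM on day 14. It was the only member with a lower mean log2 level on day 14. Replicate 2 of day 14 lay within the range of day 10, and the other 2 samples of day 14 lay below it. The log2 fold change was -1.09 with an SE of 0.60 and a 95% interval from -2.45 to 0.27 (adjusted p = 0.600 from limma). It was -1.74 without replicate 2 of day 14 and -0.51 without replicate 3 of day 14.

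*Osmr*, which encodes the OSM receptor chain, was at 18.8, 39.3 and 22.5 FPKM on day 10, against 38.8, 40.4 and 68.6 FPKM on day 14. Only replicate 2 of day 10, at 39.25 FPKM, reached into day 14, whose lowest sample was at 38.83 FPKM. The log2 fold change was 0.90 with an SE of 0.31 (95% interval 0.18 to 1.61, adjusted p = 0.402 from limma). Without replicate 2 of day 10 it was 1.21.

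*Lifr* exceeded *Osmr* in all 3 samples of day 10, and *Osmr* exceeded *Lifr* in 2 of 3 samples of day 14. The ratio of *Lifr* to *Osmr* was 2.95, 1.87 and 1.15 on day 10 and 0.522, 1.34 and 0.143 on day 14. Replicate 2 of day 14 was the only later sample with a ratio above 1, and it lay within the range of day 10.

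*Lifr* and *Il11ra1* each had the same order of samples as a marker list. *Lifr* followed the summed OB markers, mostly *Col1a1*, *Col1a2* and *Ibsp*, in all 6 samples, from the highest (replicate 2 of day 10) to the lowest (replicate 3 of day 14). With the chondrocyte sum it shared 4 places. The lowest 2 samples were replicates 1 and 3 of day 14 in 7 of the 9 OB markers and 9 of the 10 chondrocyte markers, as in *Lifr*. Of the 9 OB markers, 6 were more than 2-fold lower on day 14, next to 8.39% of all genes, and 0 had an adjusted p under 0.05 in limma. The days of *Alpl*, *Ibsp*, *Bglap*, *Bglap2* and *Dmp1* overlapped. Those of *Sp7*, a transcription factor of the OB lineage, did not, at 55.0 ± 17.1 and 13.9 ± 12.4 FPKM (SD, n = 3 each, adjusted p = 0.309 from limma). *Il11ra1* followed the 5 fibroblast and progenitor markers, which summed to 284, 319 and 511 FPKM on day 10 and to 720, 403 and 1024 FPKM on day 14 and were mostly *Ly6a*. It also followed the 3 adipocyte markers, but their sum was nearly all *Fabp4*, at 8.48 to 30.7 FPKM, with *Adipoq* and *Plin1* at no more than 0.213 FPKM. The 3 matches in all 6 samples were the only ones among 100 pairs of a member and a marker list, and 0 pairs ran in exactly the reverse order. The part of other cells in these values was not tested.

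**Figure D3:**
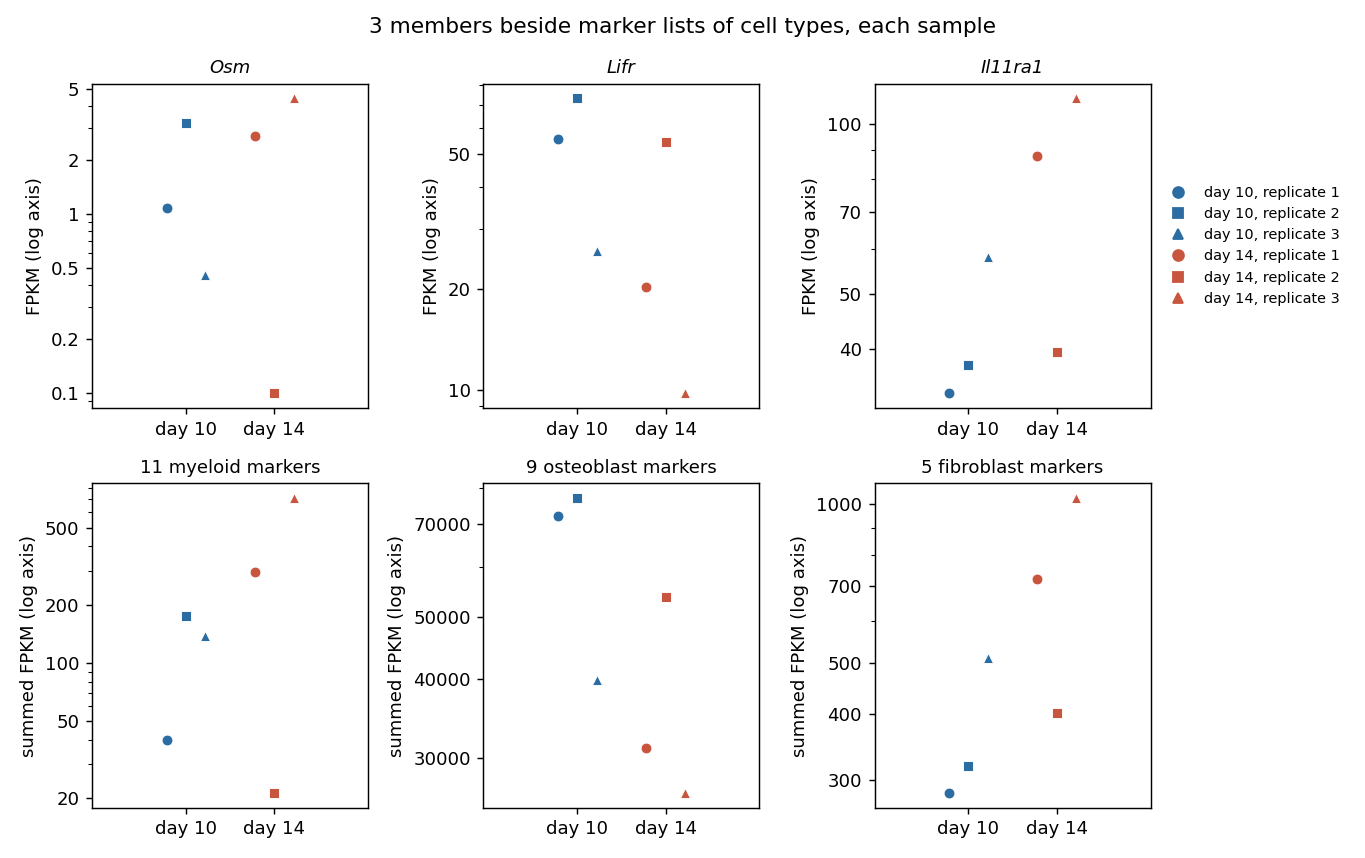
FPKM of *Osm*, *Lifr* and *Il11ra1* (upper row, log axes) above the summed FPKM of 11 myeloid, 9 OB and 5 fibroblast markers (lower row, log axes) in each of the 6 samples. *Lifr* and *Il11ra1* had their 6 samples in the same order as the list below them, and *Osm* shared the highest and the lowest sample with the myeloid markers.

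*Socs3*, the feedback inhibitor of gp130 signalling, was highly expressed on both days. It was at 184, 131 and 150 FPKM on day 10, against 242, 121 and 173 FPKM on day 14. The lowest and the highest sample were both from day 14. The means were 155 ± 26.9 and 179 ± 60.8 FPKM (SD, n = 3 each), with a log2 fold change of 0.16, a 95% interval from -0.44 to 0.76 and an adjusted p of 0.902 from limma. A 2-fold difference in either direction lay outside that interval.

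The level of *Socs3* relative to *Il6* did not overlap between the days. The ratio of *Socs3* to *Il6* was 1.76, 1.50 and 1.55 on day 10 and 1.13, 0.607 and 0.792 on day 14. *Socs3* was thus above *Il6* in all samples of day 10 and below it in 2 of 3 samples of day 14. Of the 2 genes alone, *Il6* did not overlap between the days and *Socs3* did. The ratio thus carries the *Il6* difference, known when the list was chosen, and is no separate result. How many other genes had a ratio to *Il6* without overlap was not counted.

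**Figure D4:**
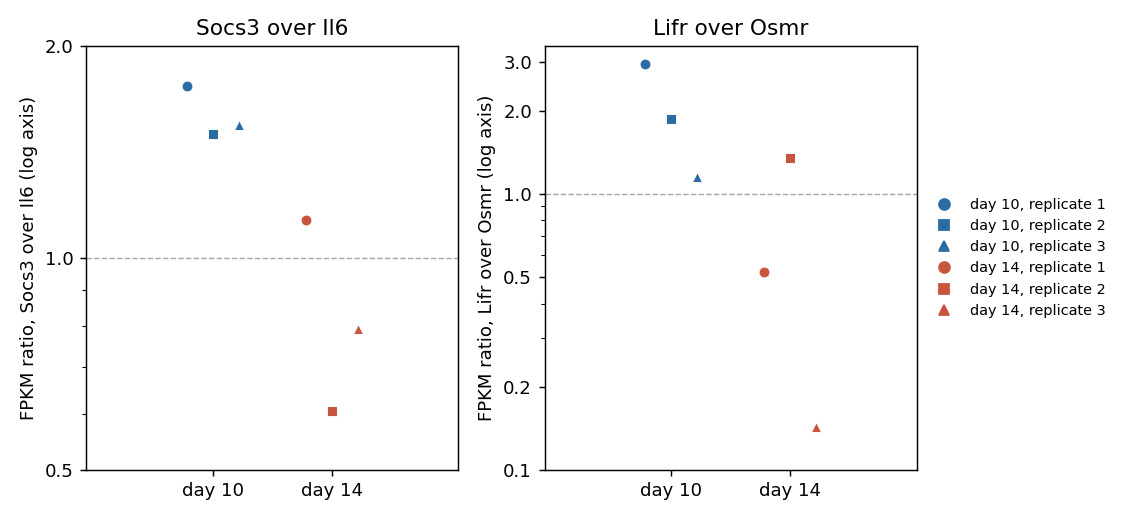
Ratio of FPKM in each sample (log axes), *Socs3* to *Il6* on the left and *Lifr* to *Osmr* on the right, with a dashed line where the genes are equal. The *Socs3* to *Il6* ratio lay between 1.50 and 1.76 on day 10 and between 0.607 and 1.13 on day 14, while the *Lifr* to *Osmr* ratio of replicate 2 of day 14, 1.34, fell among the day 10 values.

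On day 10 the mean levels ran from *Socs3* at 155 FPKM and *Il6* at 96.5 FPKM through *Lifr*, *Il6st*, *Il11ra1* and *Osmr* to *Lif*, *Osm*, *Il6ra* and *Il11*, the lowest at 1.28 FPKM. The first 2 places held in all 3 samples, and so did the steps from *Osmr* to *Lif* and from *Lif* to *Osm*. Neighbours among *Lifr*, *Il6st*, *Il11ra1* and *Osmr* changed places in at least 1 sample, and so did those among *Osm*, *Il6ra* and *Il11*. On day 14 *Il6* came first at 210 FPKM, ahead of *Socs3* in 2 of 3 samples. *Il11ra1* then took place 3 and *Lifr* place 6, after *Osmr*, and *Il6ra* was lowest at 1.83 FPKM. The steps from *Socs3* to *Il11ra1*, from *Il6st* to *Osmr* and from *Lif* to *Il11* held in all 3 samples of day 14.

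Within the family, *Il11* was most like *Il6* over the 6 samples (Pearson r = 0.87 on log2(FPKM + 0.1)) and *Il6st* followed at 0.81. *Lifr* was least like it, at -0.61, and *Socs3* stood at 0.34. Among 11162 genes with a mean of at least 1 FPKM, the 5 most like *Il6* were *Mir1892* (r = 0.991), *Samhd1* (0.987), *Mr1* (0.984), *Ptpn23* (0.983) and *Clcc1* (0.983). *Samhd1*, which encodes a nucleotide hydrolase, was at 4.79 to 6.70 FPKM on day 10, against 12.04 to 14.1 FPKM on day 14. *Mir1892* was listed at 0 in all samples of day 10 and at 842 to 2085 FPKM on day 14, and FPKM of so short a gene is uncertain. Among the genes most like *Socs3* were *Fam189b* (0.983) and *Rad51l1* (0.982). These values rank genes and carry no test: the samples of a day share their time and digestion, and any gene that differs between the days with a small spread comes near to *Il6*.

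Genes around the family were read from 8 lists of 88 genes, of which 85 passed the filter. In limma 0 of the 85 had an adjusted p under 0.05 (lowest 0.164, *Lbp*), and 20 had an unadjusted p under 0.05 (10.0% of all genes did), 18 of them higher on day 14. Over 2-fold higher were 8 genes and over 2-fold lower 1, *Pth1r*, next to the 5.25% and 8.39% of all genes given above. In 17 genes day 14 lay wholly above day 10, and in 1, *Pias3*, wholly below, next to 7.59% and 6.67% of all genes. The median log2 fold change of the 85 was 0.35. Without replicate 2 of day 14, 17 were over 2-fold higher and 1 lower (9.61% and 7.55% of all genes). Without replicate 3 of day 10, 13 were over 2-fold higher and 4 lower (7.29% and 10.6% of all genes).

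Of the other ligands 6 of 8 passed the filter and 4 were higher on average on day 14, next to 46.5% of all genes tested. *Clcf1*, a ligand of the CNTF receptor, had means of 4.63 and 6.92 FPKM with overlapping days. *Ctf1*, which encodes cardiotrophin 1, had means of 1.67 and 2.25 FPKM, and *Cntfr*, the receptor chain for CNTF and CLCF1, of 1.56 and 2.76 FPKM. The days of *Ctf1* and *Cntfr* overlapped as well. Of the other receptor chains 3 of 4 passed the filter, 2 of them with a higher mean, next to the same 46.5%.

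The 14 kinases, STATs and adaptors below gp130 had a median log2 fold change of 0.19, with 11 higher on average, next to 46.5% of all genes tested. Over 2-fold were 0, next to 5.25% of all genes higher and 8.39% lower. *Stat3*, the main STAT of the pathway, was at 63.8 ± 12.2 and 87.1 ± 10.2 FPKM (SD, n = 3 each) with overlapping days, a log2 fold change of 0.46 and an adjusted p of 0.452 from limma. *Jak1*, the kinase bound to gp130, had means of 52.4 and 73.5 FPKM, and *Stat5b* of 3.35 and 5.18 FPKM. *Tyk2*, another kinase of the complex, had the lower mean on day 14, 3.16 against 5.07 FPKM. The days of *Stat5b* did not overlap, and those of *Stat3*, *Jak1* and *Tyk2* did.

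Inhibitors other than *Socs3* were mixed, with 8 of 12 higher on average (46.5% of all genes tested were) and a median log2 fold change of 0.30. *Pias3*, which encodes an inhibitor of STAT3, was at 10.7 ± 1.90 FPKM on day 10 and 6.25 ± 0.20 FPKM on day 14 (SD, n = 3 each), all day 14 samples being below day 10 (log2 fold change -0.76, adjusted p = 0.305 from limma). *Ptpn2*, a phosphatase that acts on JAKs and STATs, went the other way without overlap, with means of 40.7 and 57.9 FPKM. *Cish*, a SOCS family gene induced by STAT5, had means of 5.91 and 11.2 FPKM with overlap, and *Ptpn1*, a related phosphatase, of 14.2 and 17.7 FPKM. Of the 2 proteases that release receptor chains from the cell surface, *Adam17* had means of 21.0 and 28.7 FPKM without overlap, and *Adam10* of 23.1 and 19.2 FPKM with overlap.

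Among 21 genes known to respond to IL-6 family cytokines, 19 were higher on average on day 14, 2 over 2-fold, with a median log2 fold change of 0.54. Of all genes tested, 46.5% were higher on average and 5.25% over 2-fold higher. *Lbp*, an acute-phase gene for a lipopolysaccharide-binding protein, was at 46.2, 58.9 and 57.5 FPKM on day 10, against 111, 104 and 120 FPKM on day 14. The days were well apart (log2 fold change 1.05, SE 0.16, adjusted p = 0.164 from limma). *Icam1*, an adhesion molecule that the study had also picked on these samples, had means of 25.5 and 72.0 FPKM (log2 fold change 1.49, adjusted p = 0.292 from limma). *Mcl1*, a survival gene, had means of 91.0 and 141 FPKM, and *Cebpd*, a transcription factor, of 48.2 and 70.2 FPKM. Neither *Icam1*, *Mcl1* nor *Cebpd* overlapped between the days. *Timp1*, the response gene with the highest level, had means of 899 and 1539 FPKM and did overlap. These genes also answer to other signals, and that they belong to a list does not show which signal acted.

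Of the 13 cytokines, receptors and enzymes known to act upstream of *Il6*, 11 were higher on average, next to 46.5% of all genes tested. The median log2 fold change of the list was 0.36. *Tnfrsf1b*, a TNF receptor that was also picked by the study on these samples, had means of 11.0 and 23.2 FPKM and *Il17ra*, the IL-17 receptor, of 19.8 and 35.3 FPKM, both without overlap. *Tlr2*, a receptor for bacterial lipoproteins, had means of 5.73 and 8.60 FPKM, and *Ptgs2*, which makes prostaglandins, of 318 and 428 FPKM, both with overlap. *Pth1r*, the receptor for parathyroid hormone on OBs, was at 248, 166 and 135 FPKM on day 10, against 72.7, 173 and 35.6 FPKM on day 14. As for *Lifr*, replicate 2 of day 14 lay within day 10 and the other 2 samples of that day below it.

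Immediate early and heat shock genes, which are known to be induced while cells are taken out of tissue, were listed because the digestions differed between the days. Of 14 such genes 10 were higher on average and 3 over 2-fold higher, with a median log2 fold change of 0.15. Of all genes tested, 46.5% were higher on average and 5.25% over 2-fold higher. The highest, *Fos*, had means of 1596 and 1479 FPKM, and *Egr1* of 671 and 930 FPKM, both with overlap. The 3 genes over 2-fold higher were heat shock genes, and their days did not overlap: *Hspa1b* with means of 69.7 and 191 FPKM, *Hspa1a* with 45.8 and 111 FPKM and *Dnajb1* with 127 and 255 FPKM. The part of the digestions in the *Il6* values was not tested.

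**Figure D5:**
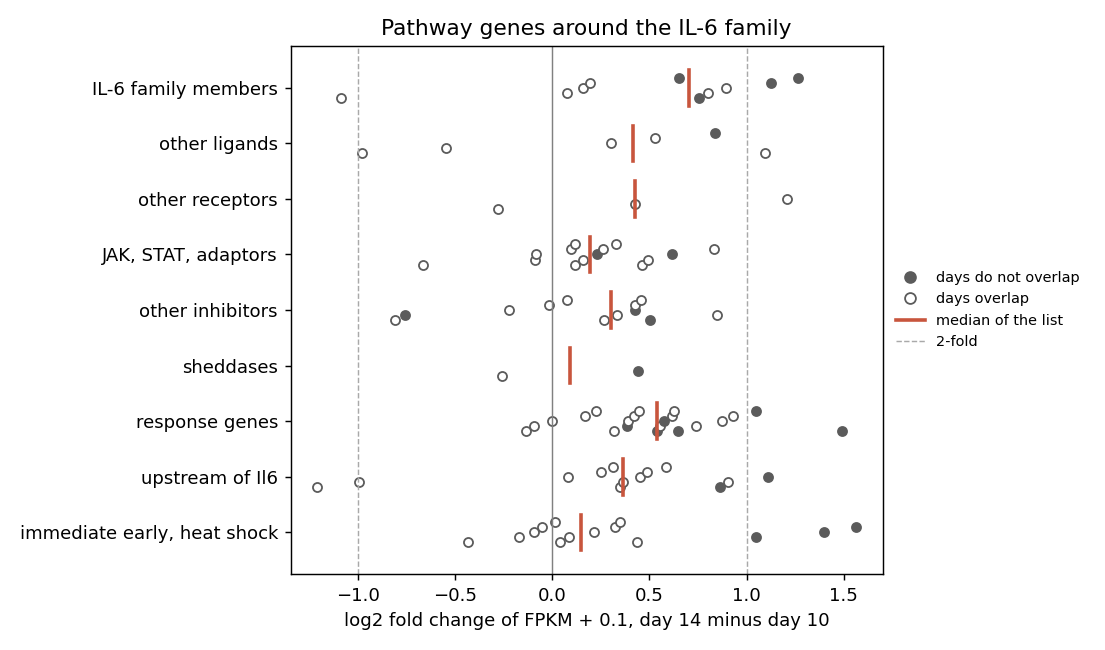
Log2 fold change (day 14 minus day 10, log2(FPKM + 0.1)) of the 10 members and of the tested genes of 8 pathway lists, with 1 circle per gene, filled where the days do not overlap, a red line at each median and dashed lines at 2-fold. The median was 0.70 for the members, 0.54 for the response genes and between 0.09 and 0.42 for the other lists.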

How the data were processed

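ECFP+ OBs were sorted from BMP-2-induced ectopic bone on day 10 and day 14 (3 samples each). cDNA was made with a SMART-Seq ultra-low input kit, which does not mark strand, and sequenced as 75-base single-end reads. Per the study's methods, TopHat 2.0.13, run with Bowtie2 2.2.3 and SAMtools 0.1.19, placed the reads on the mm10 genome, and the authors computed the deposited FPKM values per gene with Cufflinks 2.2.1. The gene annotation behind these values is not given in the sources used here. No counts were used, and the depth was estimated from the steps between low FPKM values with an assumed fragment length of 230 bases. Read numbers of a gene also rest on the median length of its annotated transcripts, 1059 bases for *Il11* and 1522 for *Osm*. The lengths behind the FPKM values may differ from these. In 1 table, 25 gene symbols turned into dates were restored by their position.

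From the FPKM values, log2(FPKM + 0.1) was compared between the days over the 19526 genes with a mean above 0.1 FPKM over all 6 samples. The tool was limma 3.58.1 (R 4.3.3), whose eBayes step was given the trend of variance with mean. P-values were adjusted by Benjamini-Hochberg over these genes. Fold changes on this scale understate those of low genes. With 3 samples a day, an exact permutation test could not go below p = 0.1, and none was run. Samples were grouped by their titles. Alternatives were pseudocounts of 0.01 and 1, no filter or a mean above 1 FPKM, 2 rescalings, no trend, the replicate number as a block and each sample left out in turn, with the filter kept on the mean over all 6 samples.

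The members and the gene lists were chosen with earlier results of these data known. All 10 members are named. Of each pathway list up to 4 genes are named, those of smallest unadjusted p whose mean reached 1 FPKM, plus the gene with the highest mean. The 5 genes most like *Il6* and the 3 most like *Socs3* were ranked by Pearson r over the 6 samples. Some genes that these rules name are not reported here. Cell type markers named with values were chosen after their values were seen. Marker lists covered 10 cell types. Of these, 6 neutrophil genes (5 of them listed, *Ly6g* not) summed to 0.820 to 260 FPKM, 7 osteoclast genes to 447 to 676 FPKM, 6 lymphocyte genes to 0.0583 to 3.48 FPKM, 8 endothelial genes to 2.05 to 8.57 FPKM and 5 mural genes to 270 to 610 FPKM per sample. The osteoclast sum was mostly *Ctsk*, at 403 to 614 FPKM, with *Calcr*, *Oscar* and *Dcstamp* at no more than 0.980 FPKM. The mural sum was mostly *Acta2*, at 236 to 594 FPKM.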

Additional observations from a re-analysis of the deposited data

How the results depend on the processing

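With all samples kept, the counts of members and pathway genes over 2-fold and past the adjusted p stayed within 1.5 times those reported. So did the count of members without overlap where it was recomputed, but the members in it changed. Scaled to the upper quartile, 3 members were without overlap, *Lif* no longer among them. Scaled to the same sum, 4 were, with *Osmr* in place of *Lif*. *Il11* fell under 2-fold with a pseudocount of 1 (0.89 on the log2 scale). When each sample was left out in turn, 2 to 5 members and 7 to 18 pathway genes were over 2-fold. The number of members whose days did not overlap ran from 4 to 7. Leaving out a sample cannot lower that number, and the matching share of all genes was taken only without replicate 2 of day 14. The highest counts came without replicate 2 of day 14, and 5 members and 17 pathway genes were over 2-fold without replicate 3 of day 10. Shares over all genes tested moved as well without replicate 2 of day 14. Wholly above day 10 were 15.4% and wholly below 13.3%, against 7.59% and 6.67% with all samples. Over 2-fold higher were 9.61% and lower 7.55%, against 5.25% and 8.39%. A gene without overlap stays so when a sample is left out, so the shares wholly above and wholly below can only stay or rise. What else moved the shares was not tested. In none of the 14 alternatives did a member or a pathway gene reach an adjusted p under 0.05 in limma. *Il6* was over 2-fold in 14 of 14 alternatives, *Il11* in 12 and *Lifr* in 11. The sign held in 14 of 14 for 7 members, in 13 for *Il6ra* and *Socs3* and in 9 for *Osm*. Without replicate 1 of day 14 the median log2 fold change of all genes was -0.10, and under the 2 rescalings it was -0.05 and -0.08.

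Over all genes, samples with the same replicate number hardly deviated together (r = 0.06, -0.01 and 0.09 for replicates 1, 2 and 3). These values gave no clear sign that the numbers pair the samples, but they cannot exclude it. Replicates 1 and 3 of day 10 correlated best with their own number on day 14, and replicate 2 with replicate 3. With the replicate block 3 members and 9 pathway genes were over 2-fold and 0 of either had an adjusted p under 0.05 in limma. The adjusted p of *Lifr* from limma was then 0.197, against 0.600 without the block, and that of *Il11ra1* 0.332, against 0.534. Among the members it was higher with the block only for *Il6*, at 0.140 against 0.116. Depth limits *Il11* and *Osm* most, at under 10 estimated reads in some samples.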
